A study of Mus musculus with 6 samples.

Results

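The 40 genes described here are expressed by dividing cells: they cover replication of DNA, entry into mitosis and separation of the chromosomes. They were taken as a named list, and all 40 were found among the 19848 genes measured. Their values were read in 13052 single cells isolated from mouse brain. A cell was counted as carrying the programme when its values summed over the list reached 10, which held for 462 of the 13052 cells. The cells came from 24 female C57BL/6 mice, which were 12 weeks (young) or 72 weeks (aged) old. Mice of each age received vehicle and kept an intact gut microbiota (control), or received antibiotics, which are not named in the sources used here, and had a depleted one. All brains were naive. The cells of 2 mice were combined per pool, giving 12 pools, 3 in each of the 4 groups, and each group holds 3263 cells. Brains were perfused, digested with papain and enriched for immune cells on a Percoll gradient, and RNA and surface antibodies were read together from each droplet (CITE-seq). A pool is named here by its group and the number of its hashtag, the antibody barcode that marks its cells. All young pools were run in 1 well and all aged pools in the other, so age and well cannot be told apart. Hashtags 1 to 3 marked controls and 4 to 6 antibiotic pools in both wells, so hashtag and treatment cannot be told apart either.

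A cell that divides first licenses its origins, loads the MCM helicase, makes deoxynucleotides and copies its DNA; it then condenses the chromosomes, builds a spindle and splits. Genes of the first step are switched on by E2F factors. Those of the second are mostly controlled by the DREAM and MuvB complexes. These complexes act through a pair of promoter elements, the cell cycle genes homology region and the CCAAT box. Microglia, the resident macrophages of the brain, renew slowly by local division, whereas monocytes and neutrophils are made in bone marrow and stop dividing as they mature.

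The promoters of the members are shown first, because the 2 sets of genes described later (13 of replication, 27 of mitosis) are textbook targets of these elements. Promoter sequences from RefSeq (build GRCm38.p6) were matched for 35 of the 40 members, 36 promoters in all since Uhrf1 has 2 starts. Aurkb, Ccna2, Kif20a, Stmn1 and Tpx2 had no entry. In the 250 bases before the start, both strands were searched for CCAAT, for TTTGAA (the homology region) and for the E2F forms TTTCCCGC, TTTGGCGC, TTTCGCGC and TTTGCCGC. E2F matches may overlap each other. Below, capitals mark these matches on either strand, and each sequence runs 5′ to 3′ along the strand of its gene. Top2a (chr11:99024190-99024439, minus strand) and Ube2c (chr2:164769679-164769928, plus strand) hold 6 CCAAT matches each. Cdk1 (chr10:69352913-69353162, minus strand) holds all 3 elements. Mcm6 (chr1:128359706-128359955, minus strand) holds 3 E2F forms, 2 CCAAT matches and no TTTGAA. Birc5 (chr11:117848987-117849236, plus strand) holds none of them and is shown as a contrary case. The promoters of Nusap1, Dut, Tk1 and Tyms held none of them either.
Top2a: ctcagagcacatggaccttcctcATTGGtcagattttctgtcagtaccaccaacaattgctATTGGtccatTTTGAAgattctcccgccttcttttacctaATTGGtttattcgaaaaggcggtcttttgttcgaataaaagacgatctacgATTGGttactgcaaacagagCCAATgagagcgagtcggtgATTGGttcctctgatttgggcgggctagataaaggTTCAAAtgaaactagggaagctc
Ube2c: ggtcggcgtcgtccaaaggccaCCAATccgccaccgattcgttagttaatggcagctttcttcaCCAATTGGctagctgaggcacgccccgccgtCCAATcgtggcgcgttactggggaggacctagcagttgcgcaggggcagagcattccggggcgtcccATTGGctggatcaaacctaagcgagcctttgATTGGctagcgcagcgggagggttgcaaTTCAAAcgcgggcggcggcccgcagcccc
Cdk1: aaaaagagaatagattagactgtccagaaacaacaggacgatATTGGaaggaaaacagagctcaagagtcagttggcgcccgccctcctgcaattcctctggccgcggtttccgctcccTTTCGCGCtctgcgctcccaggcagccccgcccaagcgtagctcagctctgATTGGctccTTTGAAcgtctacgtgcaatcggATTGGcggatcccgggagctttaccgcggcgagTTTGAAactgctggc
Mcm6: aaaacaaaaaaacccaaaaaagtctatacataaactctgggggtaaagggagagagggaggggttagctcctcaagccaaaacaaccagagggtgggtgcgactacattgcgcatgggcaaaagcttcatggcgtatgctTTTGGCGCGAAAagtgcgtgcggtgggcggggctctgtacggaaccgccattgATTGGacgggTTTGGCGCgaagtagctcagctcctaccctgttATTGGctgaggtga
Birc5: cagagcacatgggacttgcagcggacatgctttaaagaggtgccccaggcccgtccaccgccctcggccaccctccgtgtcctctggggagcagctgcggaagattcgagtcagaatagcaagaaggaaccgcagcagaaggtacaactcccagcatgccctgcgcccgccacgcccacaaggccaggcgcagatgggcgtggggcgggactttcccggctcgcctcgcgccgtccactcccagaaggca

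CCAAT stood in 30 of the 36 member promoters (83.3%), against 33.8% of the 32851 promoters of the table. E2F forms stood in 5 member promoters (13.9%), against 1.86% of all promoters. TTTGAA stood in 8 (22.2%), against 16%. The 22 mitosis promoters held TTTGAA in 7 (31.8%) and an E2F form in 1 (4.55%). The 14 replication promoters showed the opposite order, with TTTGAA in 1 (7.14%) and an E2F form in 4 (28.6%). CCAAT was common in both sets, in 20 mitosis promoters (90.9%) and 10 replication promoters (71.4%). The median GC content was 56.6% for the member promoters and 52.4% for all of them. These are matches of letters and do not show binding.

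Depth sets what the list sum of a cell means here. The RNA values are UMI counts (unique molecules) that SCTransform had corrected towards a common depth. The total of a shallow cell goes up by this and that of a deep cell goes down. The median list sum was 1 and 33.3% of cells were at 0. Just outside the limit, 80 cells had a sum of 8 or 9, with a median of 4 members above 0; just inside, 40 cells had a sum of 10 or 11, with a median of 6. Of the 462 cells at 10 or more, 304 had at least 2000 raw UMIs. These deep cells had a median of 18502.5 raw UMIs, 24 members above 0 and a list sum of 75.5, whereas the other deep cells had a median of 7257 raw UMIs. The other 158 cells had a median of 559.5 raw UMIs and 5 members above 0, with a median ratio of corrected to raw UMIs of 8.17. Of these, 157 were in the aged well, 89 of them in the pool aged antibiotic 6 and 31 in aged control 1. Tmem119 and P2ry12, which mark microglia, were above 0 in 100% of the shallow Ly6CHigh cells at 10 or more and in 5.17% and 8.62% of the deep ones. Raw values per gene were not used here, so whether this RNA was counted in the shallow cells was not tested. For these reasons shares are given for all cells and for cells of at least 2000 raw UMIs. The authors' annotation lists every cell as a singlet; 2 cells with the same hashtag in 1 droplet cannot be seen that way, and their part in the deep cells was not tested.

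The wells also shared cell barcodes. In all, 59 barcodes occurred in both libraries, 58 of them with the same hashtag number. The aged copy had under 2000 raw UMIs in 57 of them and the young copy in 0. In those 57, the aged copy held a median of 1.45% of the raw UMIs of the young copy (range 0.989 to 6.10%) and 71.8% of its antibody tags (range 69.9 to 79.7%). The young copy reached 10 in 45 cases and the aged copy in 32, each with its young partner also there. Of the 304 deep cells at 10 or more, shared barcodes marked 16 of the 58 Ly6CHigh cells, 11 of 24 Ly6C+Ly6G+ cells, 7 of 21 B cells and 2 of 93 microglia. Values without them, a setting chosen after seeing the data, are given beside the shares, the list sums and the member means of Ly6CHigh cells.

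Cycling cells made up different shares of the authors' cell types. The type called Ly6CHigh, which carries monocyte genes, had the largest share: 153 of 389 cells at all depths and 58 of 252 deep cells. Among other types with at least 200 cells, deep cells at 10 or more numbered 24 of 316 Ly6C+Ly6G+ cells (neutrophils), 17 of 208 CD4+ cells, 41 of 508 Ly6CLow cells, 21 of 416 B cells and 35 of 723 CD8+ cells. The shares were low in ILCs (innate lymphoid cells, 8 of 323), border-associated macrophages (6 of 476) and microglia (93 of 8374). Only 9 NK cells were present, 1 of them at 10 or more. Without the shared barcodes, deep cells at 10 or more were 42 of 235 Ly6CHigh cells (17.9% in place of 23.0%), 13 of 302 Ly6C+Ly6G+ cells (4.30% in place of 7.59%) and 14 of 409 B cells (3.42% in place of 5.05%). Ly6CHigh kept the largest share, ahead of CD4+ cells at 7.73%. Shallow cells weighed on some types and not on others: they were 95 of the 153 Ly6CHigh cells, 34 of the 55 B cells at 10 or more, 1 of 42 Ly6CLow cells and 0 of 35 CD8+ cells. Cd79a, part of the B cell receptor, was above 0 in 17.6% of the shallow B cells at 10 or more and in 85.7% of the deep ones, classes whose depths differ as given above.

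**Figure D1:**
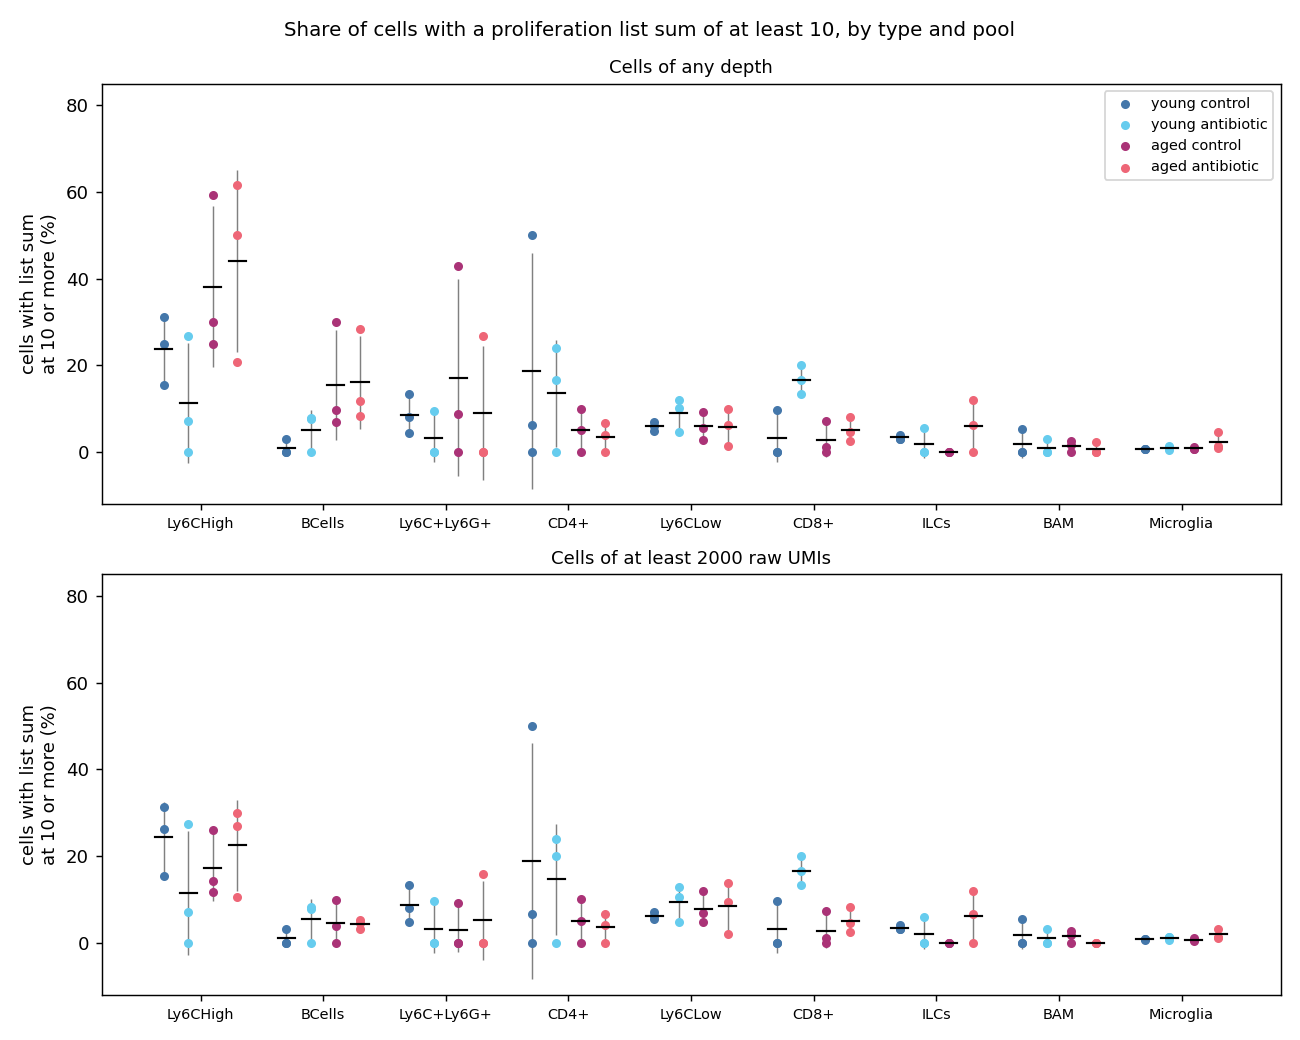
Percent of cells with a list sum of at least 10, by cell type, for all cells and for cells of at least 2000 raw UMIs. Points are pools, coloured by group, and bars show the mean and SD over pools; most Ly6CHigh pools lie high at both depths, except young antibiotic 5 at 0% (0 of 6 cells) and young antibiotic 4 at 7.14% (1 of 14), and several aged pools drop when shallow cells are left out.

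In Ly6CHigh cells the share at 10 or more, at all depths, was 31.3, 25 and 15.4% in the young control pools and 7.14, 0 and 26.8% in the young antibiotic pools. It was 59.4, 25 and 30% in the aged control pools and 20.8, 50 and 61.6% in the aged antibiotic pools. In deep cells the young control pools stood at 31.3, 26.3 and 15.4% and the young antibiotic pools at 7.14, 0 and 27.5%. The aged control pools stood at 14.3, 11.8 and 26.1%, and the aged antibiotic pools at 10.5, 30 and 26.9%. Without the shared barcodes 4 pools fell: young control 1 to 17.9%, young control 3 to 8.33%, young antibiotic 4 to 0% and young antibiotic 6 to 14.7%. The mean list sum of deep Ly6CHigh cells then went from 35.9 to 18 in young control 1, from 24.7 to 16.5 in young control 3, from 13.1 to 2 in young antibiotic 4 and from 26.8 to 12.7 in young antibiotic 6. The 4 groups overlapped in deep cells, and several pools held few of them, down to 6 cells. A pool at 0 of 6 cells allows a share of up to 50%, by 3 counts over its cells. Such floors cover counting error only.

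The CD8+ cells of young mice were split by arm, in pools too small for a planned test. In young control pools 3 of 31, 0 of 5 and 0 of 17 CD8+ cells reached 10. In young antibiotic pools 4 of 20, 2 of 15 and 3 of 18 did, so that the arms did not overlap (9.68, 0 and 0% against 20, 13.3 and 16.7%). This is 1 type at 1 age among all types read at both ages. In the other types the arms overlapped or touched at all depths. With 3 pools against 3, even arms that do not overlap reach an exact permutation p of 0.1 at best, so no CD8+ pattern is read from this. The 0 of 5 cells allow a share of up to 60% and the 0 of 17 up to 17.6%, which reaches the shares of the antibiotic pools. In deep CD8+ cells the mean list sum was 12.5, 1.6 and 2.94 in young control pools. In young antibiotic pools it was 13.4, 15.7 and 6.17, so the arms overlapped on this measure. Without the shared barcodes the list sum of young control 1 fell to 3.93, and young antibiotic 6 stood at 6.81. In aged mice the arms overlapped, at 4 of 56, 1 of 93 and 0 of 121 in control pools and 10 of 122, 5 of 110 and 3 of 120 in antibiotic pools. In CD4+ cells, young control 2 had 2 of 4 cells at 10 or more, and no pool pattern was read from such numbers.

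Members of the replication set are considered first, by role. The MCM helicase subunits unwind DNA at the fork: of Mcm2, Mcm3, Mcm5 and Mcm6, Mcm3 had the highest mean over all cells (0.240 corrected UMIs per cell) and the lowest share, 17.5%, of its total lying in the 462 cells at 10 or more. Pcna, the sliding clamp, was similar, with 11.5% of its total in those cells, whereas Pclaf, a partner of the clamp, had 88.5%. Both Mcm3 and Pcna were therefore read mostly in cells below the limit. Among enzymes of nucleotide supply (Tyms, Rrm1, Rrm2, Tk1 and Dut), Dut, which removes dUTP, had the highest mean (0.141). The chromatin factors Uhrf1 and Hells, which act on DNA methylation around replication, were low (0.0240 and 0.0283).

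Among deep cells the replication members did not all share a leading type. Dut averaged 0.564 in CD8+, 0.543 in CD4+ and 0.452 in Ly6CHigh cells, against 0.0554 in microglia. Mcm6 averaged 0.441 in CD8+ and 0.438 in CD4+ cells, against 0.0720 in microglia. Mcm3 was flatter, at 0.373 in Ly6CHigh and 0.272 in microglia. Pcna likewise averaged 0.444 in Ly6CHigh, 0.401 in CD8+ and 0.244 in microglia, and was lowest, at 0.0791, in Ly6C+Ly6G+ cells. Hells and Uhrf1 were highest in CD4+ cells (0.173 and 0.0913). These comparisons between types are descriptions, because the types were drawn from the same RNA.

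The mitosis members had one leading type. Ly6CHigh had the highest mean of all 27 mitosis members and of 8 of the 13 replication members in deep cells, 35 of 40 members in all, and microglia had the lowest mean of 20 members. Without the shared barcodes it led in all 27 mitosis members and 7 replication members, since Tk1 was then highest in CD4+ cells. Its means were lower there: 1.40 for Ube2c, 1.58 for Mki67, 1.33 for Top2a, 0.983 for Birc5 and 2.20 for Stmn1. With them, Cdk1, the kinase of mitotic entry, averaged 0.698 in Ly6CHigh cells, 0.183 in CD4+, 0.177 in Ly6C+Ly6G+ and 0.0460 in microglia. Birc5 (survivin), of the chromosomal passenger complex, averaged 1.35 in Ly6CHigh, 0.323 in Ly6CLow and 0.0417 in microglia. Ube2c, the ubiquitin-conjugating enzyme of the anaphase-promoting complex, averaged 1.95 in Ly6CHigh, 0.518 in Ly6CLow and 0.0657 in microglia. Cenpa, the histone of the centromere, averaged 1.37 in Ly6CHigh and 0.726 in B cells, its next highest type. Stmn1, which destabilises microtubules, averaged 2.94 in Ly6CHigh and 0.329 in microglia. The proliferation marker Mki67 averaged 2.08 in Ly6CHigh, 0.545 in Ly6CLow and 0.0899 in microglia. Top2a, which untangles chromosomes, averaged 1.73 in Ly6CHigh, 0.50 in CD4+ and 0.0765 in microglia. The part of each mitosis member's total that lay in the 462 cells at 10 or more ran from 49.2% for Cenpa and 54.7% for Kif23 to 95.4% for Hmmr, with 61.8% for Stmn1, 85% for Top2a and 90.0% for Mki67. These cells were chosen on the sum of the same genes, which by itself puts much of the signal there, so the figures only describe. In the cells below the limit Stmn1 was above 0 in 14.8% and Mki67 in 1.64%.

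**Figure D2:**
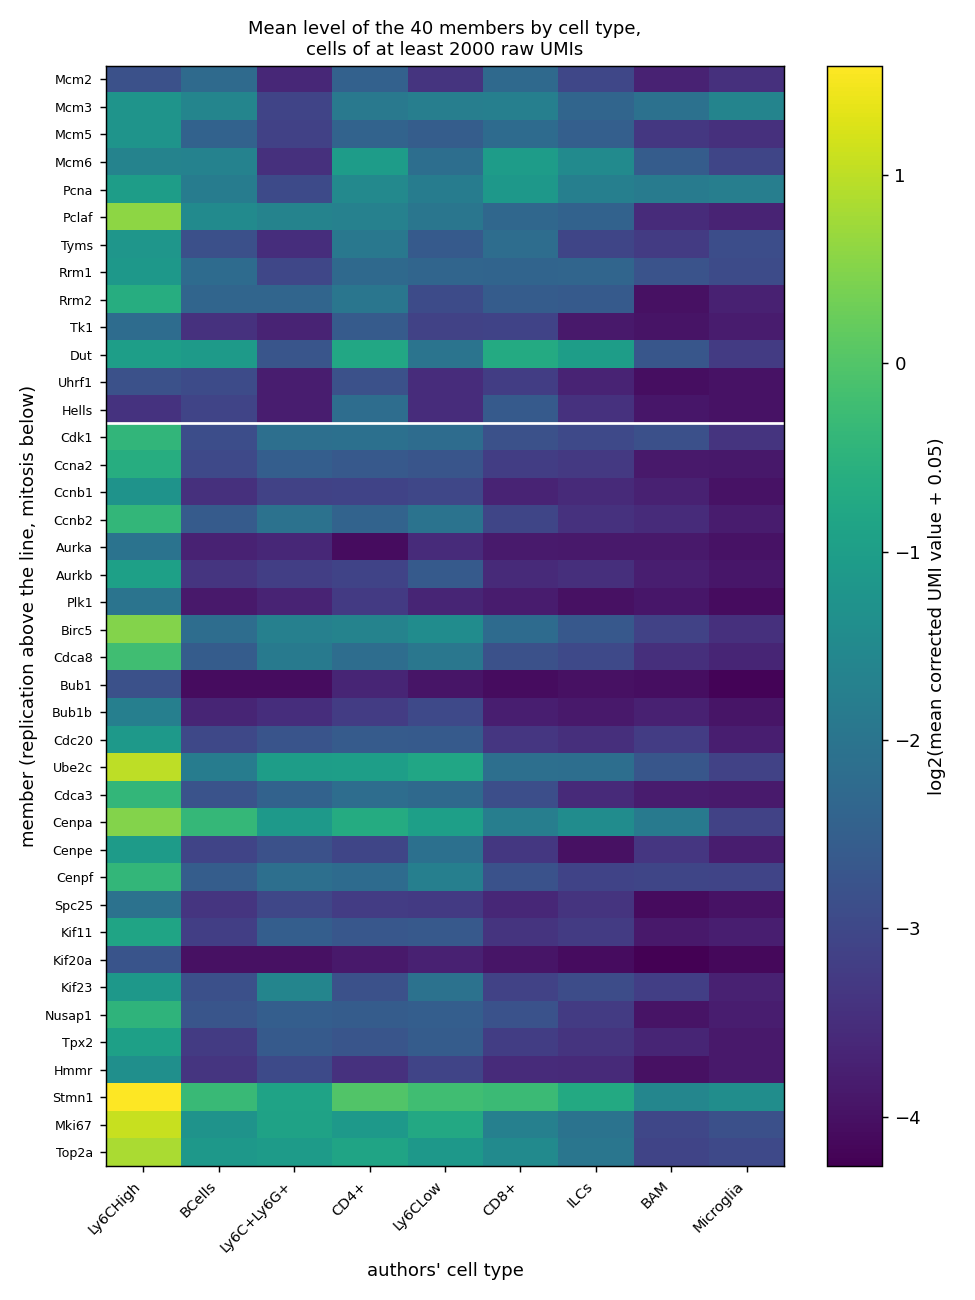
Mean value of each of the 40 members in each cell type over cells of at least 2000 raw UMIs, on a colour scale of log2(mean corrected UMI value + 0.05). Replication members stand above the white line and mitosis members below it; the Ly6CHigh column is the brightest for 35 members, while Dut, Mcm6, Hells, Uhrf1 and Mcm2 are brightest in other columns.

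Within the 304 deep cells at 10 or more, members of a set varied together across cells. The median Pearson correlation between pairs of members was 0.61 within the mitosis set, 0.43 within the replication set and -0.01 between the sets (Stmn1 left out). The strongest pair was Cdca3 with Birc5 (0.86), and Top2a with Mki67 reached 0.81. The lowest pair was Cenpa with Mcm6 (-0.49). These cells share libraries and a selection on the summed list, so the values are descriptions.

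The balance between the sets differed by type. The replication share of the list sum (replication over replication plus mitosis, without Stmn1) had a median of 27.2% over the 304 cells and was above 50% in 93 of them. It was 48.7% in CD8+ cells (n = 35), 38.1% in CD4+ (17), 36.3% in B cells (21) and 35.3% in microglia (93). It was 19.8% in Ly6CHigh (58), 15.8% in Ly6C+Ly6G+ (24) and 14% in Ly6CLow cells (41). Microglia were spread widely, with quartiles at 7.93 and 87.5%, and 38 of the 93 had more replication than mitosis signal. In Ly6CHigh cells 7 of 58 did. Many of these 38 microglia lay near the limit, with replication and mitosis sums such as 9 and 0 or 11 and 1. Among cells below the limit Pcna was above 0 in 18.3% and Mcm3 in 17.4%. The microglial balance, also by group below, thus rests in part on borderline cells, and it was not read at a higher limit. Without the shared barcodes the medians were 54.4% in CD8+ (34), 36.3% in microglia (91), 19.0% in Ly6CLow (36), 15.7% in Ly6CHigh (42) and 13.3% in Ly6C+Ly6G+ cells (13), so that the order of Ly6CLow and Ly6CHigh turned. By group, the microglial median was 30.8% for 19 young control cells and 20.2% for 28 cells of young mice given antibiotics. For aged mice it was 76.9% (14 control cells) and 57.7% (32 antibiotic cells). With cells as few as these per pool no test over pools was made.

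**Figure D3:**
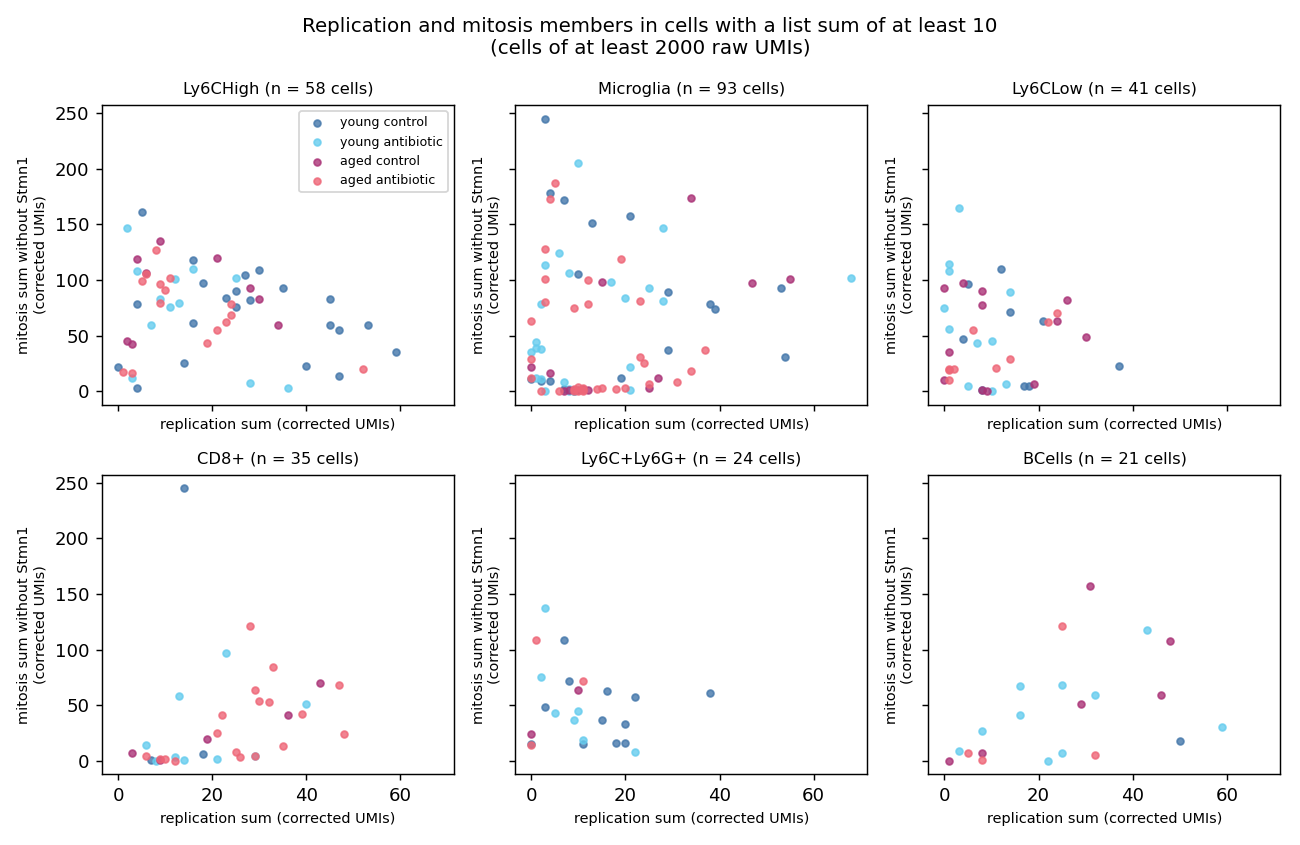
Sum of the 13 replication members against the sum of the mitosis members without Stmn1, both in corrected UMIs, for each cell of at least 2000 raw UMIs with a list sum of at least 10, in 6 cell types and coloured by group. The replication sum is the larger one in 38 of 93 microglia, 17 of 35 CD8+ cells and 7 of 58 Ly6CHigh cells.

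Markers were read beside the list to check the types. All 93 deep microglia at 10 or more had Tmem119 above 0, and their mean Tmem119 was 6.83 corrected UMIs against 8.66 in other deep microglia; P2ry12 averaged 7.14 against 11.5. Elane, a granule protease of neutrophil precursors, was at 0 in all 93. Deep Ly6CHigh cells at 10 or more had more of such granule genes than the other deep cells of their type: Elane averaged 7.47 against 0.134 and Prtn3 9.79 against 0.954. Ly6c2, the gene behind the Ly6C antigen, averaged 23.2 against 10.9. Shared barcodes marked 16 of these 58 Ly6CHigh cells and 1 of the 194 others, and marker values without them were not read. In Ly6C+Ly6G+ cells the summed neutrophil precursor list had a median of 1186.5 against 136. All 35 CD8+ cells at 10 or more had T cell and CD8 markers. The ILC type was less clear, since its 8 cells had a classical monocyte sum with a median of 11, against 2 in other ILCs, and an NK sum of 0.5 against 4.

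The genes outside the list with the most similar pattern were ranked next; of the first 10, 9 were on a list of 53 further mitosis genes and 1, H2afv, was on none of the lists. Over 13052 cells the Pearson correlation with the list sum was highest for Prc1 (0.80), H2afx (0.79), Spc24 (0.75), Cks1b (0.73) and Smc2 (0.73). Hmgb2 (0.72), Smc4 (0.72), Tubb5 (0.71), Racgap1 (0.70) and H2afv (0.68) followed. Prc1 bundles the central spindle, Spc24 belongs to the kinetochore, and Smc2 and Smc4 to condensin.

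Whether depletion of the gut microbiota or age moved the share of cycling cells was asked next. Over all cells the share at 10 or more was 3.10, 2.24 and 1.49% in young control pools and 2.19, 2.12 and 3.27% in young pools given antibiotics. It was 4.62, 2.10 and 2.71% in aged control pools and 3.03, 3.32 and 13.2% in aged pools given antibiotics. The last value belongs to aged antibiotic 6, and in deep cells it was 4.86%, against 3.07 and 2.29% in the other aged antibiotic pools and 1.36, 1.40 and 2.61% in aged control pools. Without the cells of shared barcodes the shares were 1.81, 1.85 and 1.32% in young control, 2.06, 1.91 and 2.05% in young pools given antibiotics. In aged mice they were 3.46, 1.92 and 2.64% (control) and 2.93, 3.18 and 12.0% (antibiotic). Of the 157 shallow aged cells at 10 or more, 125 have no shared barcode and stay in these shares. They had medians of 582 raw UMIs and 3200 antibody tags, against 142 tags in the other shallow aged cells, and their source was not tested. Aged antibiotic pools averaged 3.38 percentage points above aged control pools (exact permutation test over pools, two-sided, p = 0.5), and without aged antibiotic 6 the difference was 0.0305 points. With 3 pools against 3 the smallest p this test allows is 0.1, and over both ages 0.005.

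None of the 30 share tests (6 sets of cells, 5 contrasts) passed an adjusted p of 0.05, a background of 0% called. In 18 of them the exact p cannot go below 0.1, so a call was out of reach there. In the others it cannot go below 0.005, which in a single test does not pass the adjustment over 30 tests. A call needed several tests near that floor together, so the absence of one does not show that shares were alike. The lowest p was that of microglia over both ages, where antibiotic pools were 0.855 percentage points higher (exact permutation p = 0.075, Benjamini-Hochberg adjusted 0.93). In deep microglia this difference was 0.769 points (exact permutation p = 0.035, adjusted 0.692). The microglial share at all depths was 0.650, 0.820 and 0.816% in young control and 0.514, 1.31 and 1.26% in young pools given antibiotics. It was 0.746, 0.766 and 1.11% in aged control and 0.952, 1.36 and 4.63% in aged pools given antibiotics. B cells of aged control pools averaged 14.5 percentage points above those of young control pools (exact permutation p = 0.1, the smallest possible). In deep B cells, however, the group means were 4.60% and 1.08%. The contrast of aged with young control pools over all cells was 0.871 points at all depths and -0.683 points in deep cells. Its direction thus changed with the depth limit. Deep cells without shared barcodes stood at 1.99, 2.02 and 1.41% in young control pools. In aged control pools they stood at 1.36, 1.40 and 2.61%, so the groups overlapped.

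Levels of the members were then compared between groups in microglia and Ly6CLow cells, the types with at least 20 cells in every pool, as mean corrected values per pool on the log2(mean + 0.05) scale with limma. That scale understates changes of low genes. In microglia the list sum averaged 1.90, 1.87 and 2.25 corrected UMIs per cell in young control pools and 1.3, 1.93 and 2.42 in young pools given antibiotics. It averaged 1.92, 1.39 and 1.77 in aged control pools and 1.89, 1.48 and 4.53 in aged pools given antibiotics. Only aged antibiotic 6 stood above the other 11 pools, and it did so in deep cells too (4.54).

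Of the 40 members, 12 passed the filter on low values in microglia and none of them was called in any of the 5 contrasts at an adjusted p of 0.05. The background of genes called in microglia was 0.137% for young antibiotic minus control, 3.23% for aged antibiotic minus control, 5.4% over both ages, 0% for the difference between the ages and 2.66% for aged minus young control. At an unadjusted p under 0.05, 1 of the 12 members was found in each of the aged, the combined and the control contrasts and 0 in the others. The backgrounds above hold at an adjusted p, so nothing is read from these counts. In the aged contrast 10 of the 12 members had positive changes, with a median of 0.20 on the log2 scale, against -0.01 over all genes tested. Without aged antibiotic 6 the count was 5 of 12 and the median -0.01. In young mice 3 of 12 were positive.

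Stmn1 had the lowest unadjusted p of the 12 members in the aged contrast. Its microglial mean was 0.273, 0.313 and 0.296 in young control and 0.247, 0.327 and 0.325 in young pools given antibiotics. In aged mice it was 0.248, 0.182 and 0.288 (control) and 0.313, 0.215 and 0.792 (antibiotic). The aged arms overlapped, and the log2 change was 0.60 (SE 0.26, limma adjusted p = 0.223). Without aged antibiotic 5 it was 0.95 (limma adjusted p = 0.0464), the only omission of a pool that brought a member past the threshold, and without aged antibiotic 6 it was 0.12. Mki67 averaged 0.0509, 0.0639 and 0.117 in young control and 0.0137, 0.0552 and 0.169 in young pools given antibiotics. In aged mice it was 0.0627, 0.0153 and 0.107 (control) and 0.0349, 0.0409 and 0.354 (antibiotic). The high Mki67 value again belonged to aged antibiotic 6, and without it the log2 change of 0.48 turned to -0.26. Top2a behaved alike, with 0.0698, 0.0331 and 0.246 in aged pools given antibiotics against 0.0657, 0.0337 and 0.0554 in aged control pools (log2 change 0.51, SE 0.32, limma adjusted p = 0.425). Its log2 change without aged antibiotic 6 was -0.01.

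Pcna, by contrast, did not single out that pool. Its microglial mean was 0.237, 0.241 and 0.210 in young control and 0.195, 0.247 and 0.226 in young pools given antibiotics. In aged mice it was 0.270, 0.224 and 0.234 (control) and 0.244, 0.213 and 0.261 (antibiotic). Mcm3 was 0.249, 0.240 and 0.229 in aged control and 0.257, 0.229 and 0.360 in aged pools given antibiotics. Ube2c was 0.0403, 0.0123 and 0.0199 in aged control and 0.0397, 0.0224 and 0.168 in aged pools given antibiotics, and 0.0758, 0.0410 and 0.123 in young control pools. For Ube2c the lowest young control pool stood just above the highest aged control pool, but in deep cells they overlapped (0.0451 against 0.0465), and limma called no difference (log2 change -0.78, adjusted p = 0.339). Birc5 and Cdk1 were under the filter; in aged antibiotic 6 they stood at 0.131 and 0.114, against a highest value of 0.0624 and 0.0599 in the other 11 pools. Cenpa averaged 0.0746, 0.0272 and 0.139 in aged pools given antibiotics and 0.0701, 0.0475 and 0.0576 in aged control pools. Dut and Hells were at 0.103 and 0.0295 in aged antibiotic 6, the highest of the 12 pools.

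**Figure D4:**
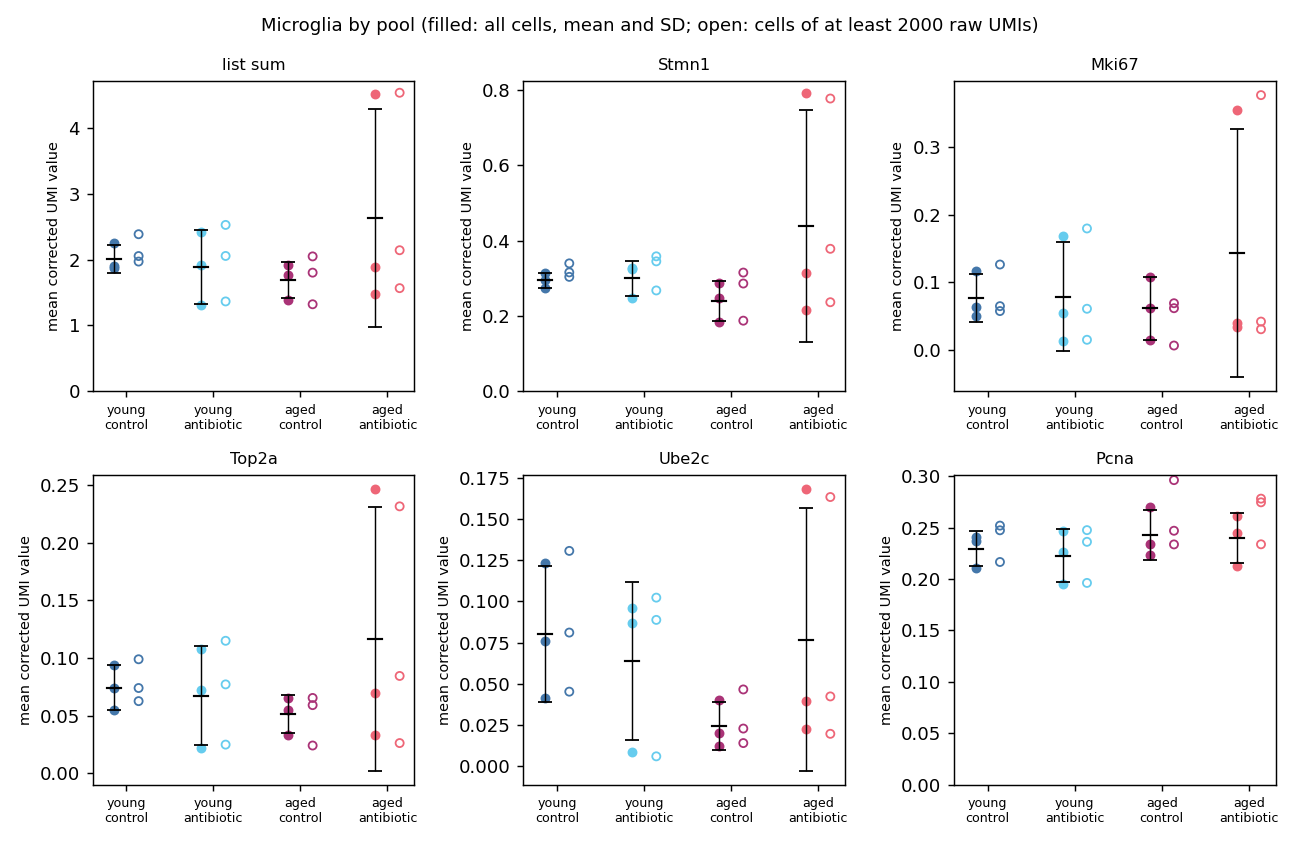
Mean corrected UMI value per microglial cell in each pool, by group, for the list sum and selected members. Filled points are pools over all cells, with bars for the mean and SD of the 3 pools of a group, and open points are the same pools in cells of at least 2000 raw UMIs; in the aged antibiotic group 1 pool lies far above the other 2 for the list sum, Stmn1, Mki67 and Top2a, and the groups overlap for Pcna.

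In Ly6CLow cells 32 of the 40 members were tested and none was called in any contrast. That does not show that levels were alike, given the spread of the pools below. The background called was 0% in the 4 contrasts on antibiotics and 0.755% for aged minus young control. Pool values varied widely: Mki67 ranged from 0.0233 to 1.27 and Ube2c from 0 to 1.61 over the 12 pools. The median log2 change of the members in young mice was 0.49 on all cells and 0.02 without the shared barcodes, where 30 members were tested.

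Other cell cycle genes were read from lists that did not hold the members. In microglia 15 of 35 further replication genes, 14 of 53 further mitosis genes, 7 of 12 G1 cyclins and drivers and 13 of 14 brakes of the cycle could be tested. Mcm7, the MCM subunit outside the list, was called higher with antibiotics in aged mice, from 0.0806 ± 0.0223 to 0.136 ± 0.0285 corrected UMIs per cell (SD, n = 3 pools; log2 change 0.51, limma adjusted p = 0.0276). Ccnd3, a D-type cyclin of G1, rose from 0.527 ± 0.0932 to 0.821 ± 0.0566 in aged mice (log2 change 0.61, limma adjusted p = 0.00213). Over both ages Ccnd3 (0.45) and Cdk6 (0.27), its partner kinase, were called higher on the log2 scale, with limma adjusted p of 0.00101 and 0.0134. Tuba1b, a tubulin, fell by 0.23 over both ages (limma adjusted p = 0.0067) and by 0.26 in aged mice (limma adjusted p = 0.0341). The brakes Rb1, the retinoblastoma protein, and Cdkn1a (p21) fell by 0.23 and 0.51 over both ages, with limma adjusted p of 0.0346 and 0.0449. Over both ages 4 of the 7 G1 genes were higher and 3 lower, and 6 of the 13 brakes were higher and 7 lower. Further replication genes were higher in 11 and lower in 4, and further mitosis genes in 3 and 11. Called were 2 G1 genes, 2 brakes, 1 mitosis gene and 0 replication genes, against 5.4% of all genes tested. In aged mice 1 gene of each list except the brakes was called, against 3.23%. Ckap2l, a spindle gene, was higher in aged than in young control pools (log2 change 0.92, limma adjusted p = 0.00568).

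These calls were not equally stable. Of 19 alternatives, Ccnd3 was called in all 19 in both contrasts, and Tuba1b in all 19 over both ages. In aged mice Tuba1b was lost in 6 of 19: without the filter on low values and without aged control 1, 2 or 3 or aged antibiotic 4 or 5, with limma adjusted p of up to 0.163. Cdk6 and Ckap2l were each lost in 1 of 19, the fit without a filter on low values. Mcm7 was lost in 4, among them the fits without aged control 1 (limma adjusted p = 0.12), without aged control 2 (0.0923) and without aged antibiotic 6 (0.0988). Cdkn1a was lost in 11 of 19 and Rb1 in 12. Ccnd3 by pool was 0.563, 0.421 and 0.597 in aged control and 0.881, 0.814 and 0.768 in aged pools given antibiotics, with no overlap. In Ly6CLow cells no gene of these lists was called.

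Antibody tags gave a readout that the RNA list did not use. Within each pool, tags of the cells at 10 or more were compared with those of the other cells of the same type by edgeR's quasi-likelihood test, blocked by pool. In microglia (11 pools with at least 5 such cells) 2 of 34 antibodies were called (5.88%). CD44, an adhesion receptor of activated leukocytes, was higher in all 11 pools, by 2.60 on the log2 scale (edgeR adjusted p = 0.000137). CD44 took between 0.426 and 13.8% of the tags of microglia at 10 or more, with a median of 1.79%, and between 0.209 and 1.71% in the other microglia, with a median of 0.563%. CD24, a surface protein of immature blood cells, was higher in 10 of 11 pools, by 2.98 on the log2 scale (edgeR adjusted p = 0.00136). CD24 took a median of 34.8% of tags against 5.14%, but 1.3% against 5.61% in aged antibiotic 4. In deep cells the changes were 2.24 for CD44 and 1.93 for CD24 (edgeR adjusted p = 0.000191 and 0.0196), higher in 9 of 9 and in 7 of 9 pools. The median there was 1.41% against 0.407% for CD44 and 21% against 4.67% for CD24. Without shallow cells, CD44 in aged antibiotic 6 fell from 13.8 to 2.98%, and in aged control 3 it stayed near 6.17%. CD24 fell from 45.8 to 13.3% in aged control 3, but was 10.7% in aged antibiotic 5. In aged antibiotic 6 CD24 fell from 15.8 to 3.29%, below the 3.55% of the other deep cells. Tags per cell were also higher in microglia at 10 or more at all depths: 590 against 222 in aged antibiotic 6 and 2472 against 1303 in young control 1. The gap was smaller in aged antibiotic 4 (205 against 177) and aged antibiotic 5 (245 against 196). In deep cells of aged antibiotic 6 it was 228 against 215. The part of this tag depth in the result was not tested.

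**Figure D5:**
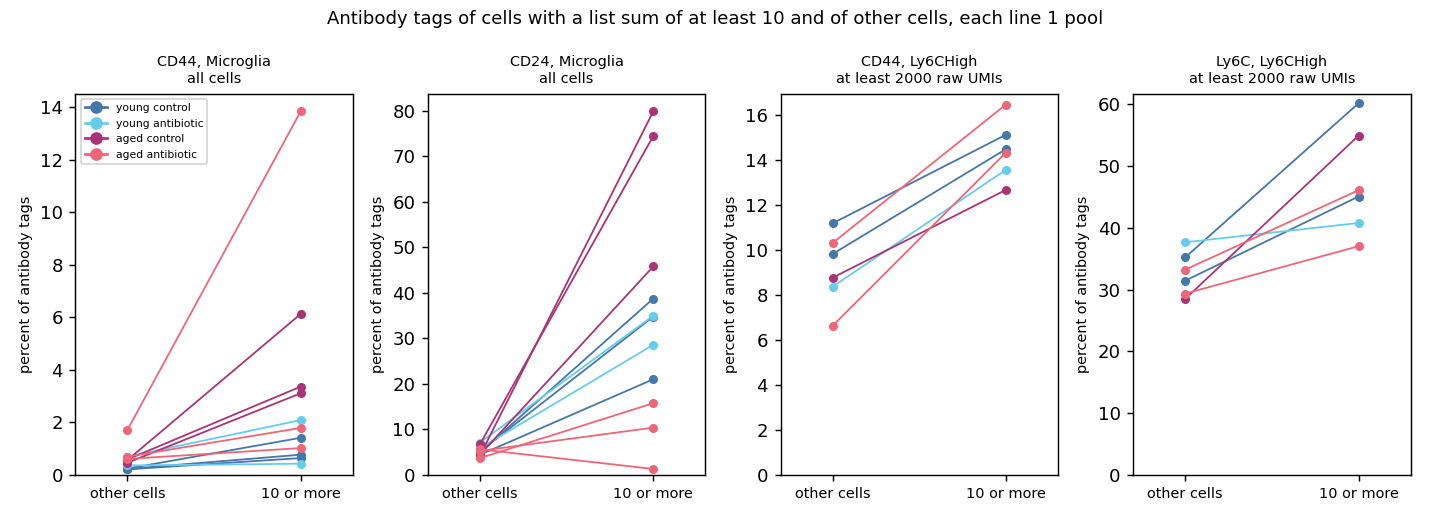
Percent of antibody tags taken by CD44 and CD24 in microglia (all cells) and by CD44 and Ly6C in Ly6CHigh cells of at least 2000 raw UMIs, for cells with a list sum of at least 10 and for the other cells of the type. Each line is 1 pool, coloured by group; in microglia the CD44 line rises in 11 of 11 pools and the CD24 line in 10 of 11, and both Ly6CHigh panels rise in 6 of 6.

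In Ly6CHigh cells 0 of 34 antibodies were called (0%) in 9 pools, where 95 of the 153 cells at 10 or more were shallow; 11 had an unadjusted p under 0.05, and DESeq2 called 4. With deep cells alone (6 pools), a setting chosen after seeing the data, 4 were called by edgeR. Of the deep cells at 10 or more, shared barcodes marked 8 of 15 in young control 1 and 6 of 11 in young antibiotic 6. Antibodies of deep cells without them were not tested. CD44 was higher in 6 of 6 pools, with a median of 14.4% of tags against 9.29% (log2 change 1.2, edgeR adjusted p = 0.000214). I-A/I-E, the MHC class II antigen of monocytes that are turning into macrophages or dendritic cells, was lower in 6 of 6, with a median of 0.437% against 6.62% (log2 change -3.22, edgeR adjusted p = 0.00421). Over cells of all depths I-A/I-E was lower in 6 of 9 pools and higher in 3. In deep cells Ly6C was higher in 6 of 6 (1.06, edgeR adjusted p = 0.0064) and CD24 in 3 of 6 (1.02, edgeR adjusted p = 0.0495). Over cells of all depths Ly6C was higher in 6 of 9 pools and lower in 3. In B cells 3 of 34 were called (8.82%) in 4 pools: CD8a at -2.75, CD103 at -1.96 and Ly6C at 2.07 on the log2 scale, with edgeR adjusted p of 8.37e-06, 0.00204 and 0.0129. None was called without young antibiotic 6 or without aged antibiotic 6, and 34 of the 55 B cells at 10 or more were shallow.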

How the data were processed

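The deposited files hold a table of RNA values, a table of antibody tags and a table of cell annotations. Per the submitters' processing notes, Cell Ranger 3.0.2 and Seurat 3.0.1 were used with genome build mm10. The RNA values are a score: UMI values that the authors corrected by SCTransform, deposited as whole numbers, with filters on cells not given in the sources used here. The antibody tags and the raw UMI totals per cell are counts as the authors deposited them. Pools, groups, singlet calls and cell types came from the authors' annotation; its other 31 columns were not used. The 34 antibodies of the table exceed the 31 of the design text. Each well held 6 pools, and pools had between 760 and 1590 cells with medians of 6512 to 7226.5 raw UMIs; aged pools had medians of 186 to 361 antibody tags per cell and young pools of 1186 to 1420.

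The list sum added the corrected values of the 40 members. Because RNA values are not counts, no count model was used on them. Shares per pool were compared by exact permutation tests over pools, adjusted over 30 tests by the Benjamini-Hochberg method, in sets of cells with at least 10 cells in every pool. Mean values per pool, as log2(mean + 0.05), were fitted with limma 3.58.1 (trended prior) over all genes with a mean of at least 0.05, for types with at least 20 cells in every pool. Antibody tags were summed per pool and class and tested with edgeR 4.0.16 (quasi-likelihood, TMM factors, pool as block), and with DESeq2 1.42.0 as an alternative. Both steps were tested on simulated data. Members named by pool were those with the highest mean in each role, Mki67, Top2a, Pcna, Birc5 and any member called; Mcm6, Hells, Uhrf1, Ccna2 and Hmmr are named as well, after their values were seen. The members and lists were chosen with earlier results of these data known. The wells are the only batch in the labels, and each holds 1 age. Pools are mixtures of 2 mice, so p-values measure the spread between pools.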

Additional observations from a re-analysis of the deposited data

How the results depend on the processing

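None of the 30 share tests passed under any setting run. That says nothing about stability, since in 18 of them the exact p cannot go below 0.1. In the others a single smallest p does not pass the adjustment. Members called were 0 in microglia and in Ly6CLow cells except where stated here. Among settings other than leaving out a pool, 199 values of a comparison stayed alike. Most of these are counts of calls that were equal or near the main count, some of them 0, which says nothing on direction. The rest are share differences that kept their direction and their side of the threshold. Of single members or antibodies, 72 values kept both, 6 newly passed the threshold and 2 no longer did. The depth limit at 2000 raw UMIs turned the difference of aged minus young control pools over all cells from 0.871 to -0.683 percentage points. That difference was -0.0143 without shared barcodes as well, and -0.724 at a list sum of 20; these last 2 settings were chosen after seeing the data. Pcna in aged microglia turned from -0.0148 to 0.0173 in deep cells, and Cenpa from 0.176 to -0.00464 with means of log values.

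Genes called in microglia moved as follows. In the young contrast (12) they were 7 with a pseudocount of 0.5, 0 without a filter on low values, 58 with means of log values and 22 in deep cells. In the aged contrast (283) they were 105, 439 and 459 under the last 3 of these settings. Over both ages (473) they were 209 without the filter and 711 in deep cells; for the difference between the ages (0) they were 4 with means of log values and 1 in deep cells; for control pools by age (233) they were 145 without the filter. In Ly6CLow cells 2 genes were called over both ages with means of log values, and by age in controls (65) 36 without the filter, 311 with means of log values and 0 in deep cells. Antibodies called in microglia (2) were 23 without TMM factors (2 higher and 21 lower, against 2 and 0) and 5 with other cells of matched depth. In Ly6CHigh cells (0) they were 14 without TMM factors (1 higher and 13 lower), 4 with DESeq2, with matched depth, at a list sum of 20 and in deep cells, and 5 without shared barcodes. The causes were not tested.

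The main fits did not pair control pools by hashtag number. Same-number correlations were 0.07, 0.11 and 0.01 in microglia and -0.10, -0.07 and -0.06 in Ly6CLow cells. Between pools of other numbers they ran from -0.11 to 0.04 in microglia and from -0.01 to 0.09 in Ly6CLow cells. The ranges overlapped in microglia, and in Ly6CLow cells the same-number values were the lower ones. With the replicate block, genes called by age were 382 in microglia, including 1 member, Ube2c (limma adjusted p = 0.0031), and 11 in Ly6CLow cells.

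Leaving out each pool in turn kept the share difference over all cells between 0.0305 and 5.13 points in aged mice, 0.142 and 2.69 over both ages and 0.132 and 1.39 for control pools by age; in microglia it lay between 0.284 and 2.12 in aged mice and 0.276 and 1.2 over both ages, and in B cells by age between 7.21 and 18.8. Genes called in microglia ranged from 0 to 26 (young), 108 to 304 (aged), 263 to 527 (both ages), 0 to 4 (difference) and 106 to 245 (controls by age), and in Ly6CLow cells from 19 to 297 by age. Members called in aged microglia ranged from 0 to 1. Log2 changes in aged microglia ranged from -0.0683 to 0.0526 for Pcna, -0.14 to 0.51 for Cenpa, -0.26 to 0.87 for Mki67 and -0.0128 to 0.905 for Top2a. Antibodies called ranged from 2 to 4 in microglia and from 0 to 4 in B cells and in Ly6CHigh cells. Depth limits all of this: 9403 of 13052 cells are microglia, and most other types held too few cells per pool for a test.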
